A study of Caenorhabditis elegans with 8 samples.

Results

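The comparison described here sets the 4 libraries of Caenorhabditis elegans strains that carry a deletion of cec-4 against the 4 libraries of strains with an intact cec-4, within 1 additive model. All 8 libraries of the series enter it, 2 (a and b) from each of 4 genotypes. The double mutant (strain GW1468) carries cec-4(ok3124) on chromosome IV together with an integrated transgene of GFP fused to lamin Y59C under the baf-1 promoter, an unc-119(+) marker and the unc-119(ed-3) allele. The cec-4 mutant (GW828) carries cec-4(ok3124) alone. The lamin Y59C strain (GW653) carries the transgene, its marker and unc-119(ed-3) with an intact cec-4, and wild-type is N2. The model has a term for the lamin transgene and a term for cec-4 and no interaction. Its cec-4 term therefore gives 1 shift for both lamin backgrounds, which is an average where their effects differ. Transgene, rescue marker and unc-119 allele all accompany the mutant lamin, but they are present on both sides of the cec-4 term in equal numbers of libraries. Each deletion strain and each intact strain is 1 strain, so any other difference between the strains goes together with its genotype.

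CEC-4 is a chromodomain protein of the nuclear envelope. It binds histone H3 methylated at lysine 9 and holds the heterochromatin that carries this mark at the nuclear periphery, most clearly in embryos. Its loss releases such chromatin from the periphery and has been described as leaving most transcription as it was. LMN-1 is the only lamin of the worm, and the Y59C change stands for a human laminopathy mutation that causes Emery-Dreifuss muscular dystrophy.

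Synchronized larvae hatched in M9 buffer for 16 h, were fed OP50 bacteria for 2.5 h and were collected as L1 animals without a green balancer. Total RNA was read as 50 bp stranded single-end libraries. Library totals were 30997254 to 36783388 counts with the deletion and 30924676 to 57069281 with intact cec-4, where wild-type b was the deepest. The labels do not say that libraries of a genotype came from separate cultures, so the p-values measure a spread between libraries that may be technical. Within a genotype, the libraries had Pearson correlations of 0.996 to 0.998 across genes, computed on log2(CPM + 0.5), where CPM is the count scaled to a fixed library size after TMM adjustment. The genotype genes matched the labels. The unc-119 level was 43.1 and 43.3 CPM in the double mutant and 24.3 and 22.4 CPM in the cec-4 mutant, against 41.5 and 41.8 CPM in lamin Y59C and 23.4 and 22.5 CPM in wild-type, so it followed the transgene and not cec-4. Sums over fixed marker lists of germline, intestine, epidermis, neurons, pharynx, body wall muscle and early embryo overlapped between libraries with and without the deletion.

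Of 14355 genes tested, 3 changed with loss of CEC-4, which is 0.0209%. They were 2 that rose, srw-85 and ufd-1 (0.0139%), and 1 that fell, cec-4 itself (0.00697%). The call is an adjusted p under 0.05 in edgeR's quasi-likelihood F-test with Benjamini-Hochberg adjustment over all genes tested, and every adjusted p given here is from that test unless DESeq2 is named. At an unadjusted p under 0.05, 515 genes (3.59%) were higher and 634 (4.42%) lower in the libraries with the deletion. In 193 genes (1.34%) all 4 libraries with the deletion were above all 4 with intact cec-4, and in 230 (1.6%) they were all below, so 423 genes (2.95%) did not overlap between the groups of 4. The median log2 fold change over all genes was 0.0035, and the median size of a change without its sign was 0.0652. Among genes averaging 5 CPM or more, a part of that set, the median standard error (SE) was 0.0582. The 2 medians cover different sets of genes and compare only roughly. By that rough comparison, a typical change was about the size of its SE.

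The deleted gene was measured first. cec-4 (WBGene00017990; WBcel235 IV:7575718-7577326, plus strand) had 4.35 and 4.61 CPM in the double mutant and 5.04 and 4.76 CPM in the cec-4 mutant, against 12.3 and 12.3 CPM in lamin Y59C and 14.5 and 12.7 CPM in wild-type. All 4 libraries with the deletion were below all 4 intact ones, which matches the labels. It averaged 4.69 ± 0.286 CPM with the deletion and 12.95 ± 1.06 CPM with intact cec-4 (SD, n = 4 each), a log2 fold change of -1.46 ± 0.07 (SE; adjusted p = 1.18e-05). The level with the deletion was not 0. The 1609 bp of the gene lie wholly inside F32E10.5 on the other strand (IV:7574355-7578381). F32E10.5 had 9.56 and 8.96 CPM in the double mutant and 9.25 and 9.26 CPM in the cec-4 mutant, against 9.67 and 9.81 CPM in lamin Y59C and 10.3 and 9.51 CPM in wild-type (-0.08 ± 0.06, adjusted p = 0.7996). The sources used here do not state whether counting used the strand, so reads of these overlapping genes may have been shared between them.

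srw-85 had the largest log2 fold change of the 14355 genes tested. This gene belongs to the srw family of predicted G protein-coupled chemoreceptors, which are proteins of sensory neurons. srw-85 (WBGene00005832; V:19429387-19431136, minus strand) had 39.3 and 40.3 CPM in the double mutant and 58.2 and 50.6 CPM in the cec-4 mutant, against 1.39 and 1.42 CPM in lamin Y59C and 1.57 and 1.24 CPM in wild-type. Every library with the deletion was far above every intact library, and among the deletion libraries the cec-4 mutant was the higher. The counts behind these values were 1282 and 1258 in the double mutant and 1779 and 1933 in the cec-4 mutant, against 44 and 45 in lamin Y59C and 50 and 70 in wild-type, so the low level was measured and not at 0. The gene averaged 47.1 ± 8.99 CPM with the deletion and 1.40 ± 0.134 CPM with intact cec-4 (SD, n = 4 each), and the log2 fold change was 5.10 ± 0.10 (SE; adjusted p = 2.32e-09). In bulk larvae, a change in the number of cells that use a gene and a change in RNA per cell cannot be told apart.

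ufd-1 encodes a cofactor that, with NPL-4, brings ubiquitinated proteins to the unfolding ATPase CDC-48. ufd-1 (WBGene00006733; IV:12329408-12330890, minus strand) had 70.2 and 78.3 CPM in the double mutant and 73.0 and 69.3 CPM in the cec-4 mutant, against 44.9 and 45.4 CPM in lamin Y59C and 42.4 and 44.2 CPM in wild-type. The groups of 4 did not overlap, and the genotypes on each side lay close together. The gene averaged 72.7 ± 4.02 CPM with the deletion and 44.2 ± 1.28 CPM with intact cec-4 (SD, n = 4 each), a log2 fold change of 0.72 ± 0.04 (SE; adjusted p = 6.12e-05).

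**Figure D1:**
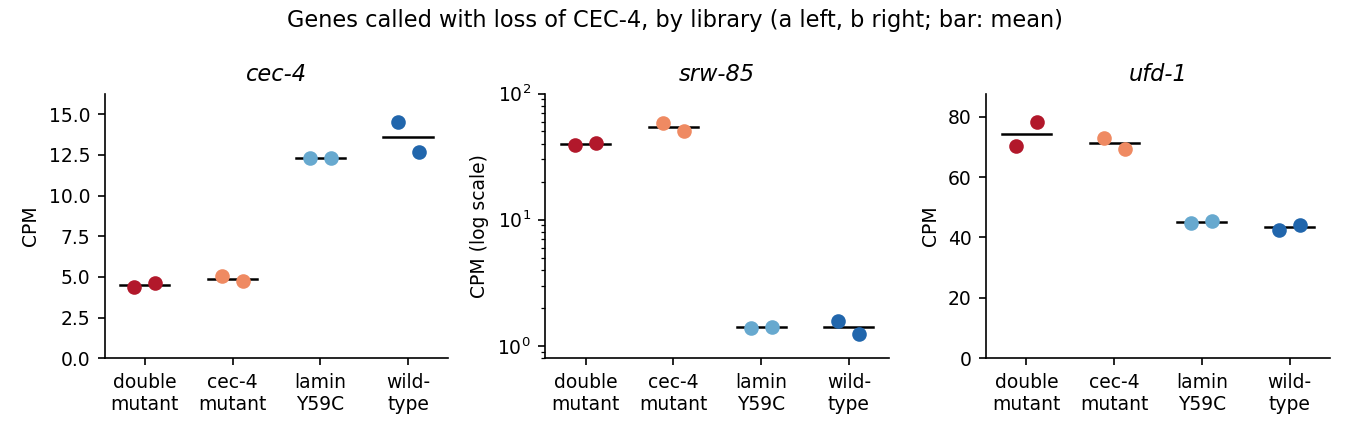
CPM of cec-4, srw-85 and ufd-1 in each library, by genotype (a left, b right in each pair; horizontal bars are means of 2 libraries; the srw-85 axis is logarithmic). Without CEC-4, cec-4 lies at 4.35 to 5.04 CPM against 12.3 to 14.5 CPM with it, srw-85 at 39.3 to 58.2 against 1.24 to 1.57, and ufd-1 at 69.3 to 78.3 against 42.4 to 45.4.

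**Figure D2:**
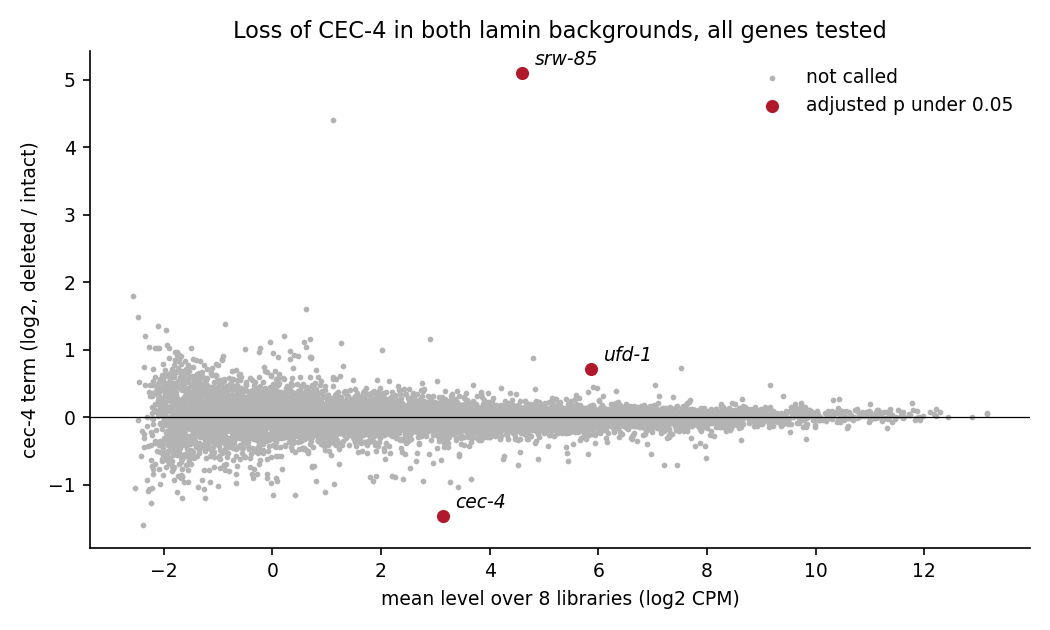
The cec-4 term of each of 14355 genes tested (vertical axis, log2 fold change, libraries with the deletion over those with intact cec-4) against its mean level over 8 libraries (horizontal axis, log2 CPM); red points were called. The 3 called genes stand apart from a cloud centred near 0, and the grey point at 4.40 is daf-42, which rests on 1 library.

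The point nearest to srw-85 in the plot of the cec-4 term was not called. daf-42, picked out after its values were seen, had 0.245 and 0.192 CPM in the double mutant and 0.392 and 15.8 CPM in the cec-4 mutant, against 0.252 and 0.189 CPM in lamin Y59C and 0.220 and 0.142 CPM in wild-type. A single library, cec-4 mutant b, was high, and its log2 fold change was 4.40 ± 1.3 (adjusted p = 0.561).

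Apart from srw-85, 0 srw genes were called, and most were not expressed at a testable level. The table held 107 srw genes, of which 36 had 0 counts in all 8 libraries and 20 were tested. Of these 20, 1 was called (srw-85), while 3 of them had an unadjusted p under 0.05 on the higher side and 0 on the lower, with a median log2 fold change of 0.09 beside 0.0035 over all genes. srw-85 made up 69.7% of all srw counts in the libraries with the deletion and 6.82% in those with intact cec-4. srw-98 had 0.705 and 0.608 CPM in the double mutant and 0.589 and 0.811 CPM in the cec-4 mutant, against 0.441 and 0.252 CPM in lamin Y59C and 0.408 and 0.408 CPM in wild-type. Its groups of 4 did not overlap, but it was not called (0.85 ± 0.23, adjusted p = 0.560). srw-145, at 2.01 to 4.34 CPM over the 8 libraries, had a log2 fold change of 0.55 ± 0.20 (adjusted p = 0.597) and overlapping groups. srw-86, next in number to srw-85, had 3.46 and 3.78 CPM in the double mutant and 4.48 and 4.29 CPM in the cec-4 mutant, against 4.70 and 3.88 CPM in lamin Y59C and 5.40 and 4.33 CPM in wild-type (-0.19 ± 0.11, adjusted p = 0.720). The 1186 other chemoreceptor-class genes of the table, of which 317 were tested, had 0 called, 17 higher (5.36%) and 2 lower (0.631%) at that unadjusted threshold, and a median of 0.14. The count of higher members was 8 with double mutant a left out, 27 with double mutant b left out and 2 in DESeq2, so it was not stable.

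The genes next to srw-85 on chromosome V were not called. Among the 4 nearest tested genes on each side, 0 were called by edgeR or DESeq2, and 1 (C25F9.11) had an unadjusted p under 0.05. The nearest, C25F9.11 (V:19432447-19433072, 1310 bp away), had 13.6 and 14.3 CPM in the double mutant and 20.6 and 18.6 CPM in the cec-4 mutant, against 22.2 and 18.8 CPM in lamin Y59C and 21.8 and 18.1 CPM in wild-type. Its value had the opposite sign to that of srw-85 (-0.28 ± 0.11, adjusted p = 0.606), and its groups overlapped. On the other side, C25F9.2 was at -0.36 ± 0.25 (adjusted p = 0.768). The other 6 neighbours had log2 fold changes from -0.12 to 0.41.

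Next to ufd-1, a gene on the side of its start came close to the threshold. F19B6.1 (WBGene00008948; IV:12330976-12336075, minus strand) ends 85 bp upstream of ufd-1 and is read in the same direction. It had 188 and 199.9 CPM in the double mutant and 172 and 176 CPM in the cec-4 mutant, against 158 and 159 CPM in lamin Y59C and 134 and 145 CPM in wild-type. All 4 libraries with the deletion were above all 4 intact ones. F19B6.1 was the uncalled gene with the smallest p of the cec-4 term (0.30 ± 0.04, adjusted p = 0.0867), and DESeq2 called it (adjusted p = 4.98e-06). It was named after its values were seen. Within the lamin Y59C background its value was 0.29 ± 0.06, and within the wild-type background 0.32 ± 0.06. Further out, the nearest tested gene beyond F19B6.1, best-22, was at 0.02 ± 0.05, and the one on the other side of ufd-1, oac-58, at 0.13 ± 0.18, and neither was called (adjusted p = 0.967 and 0.915). Beyond best-22, sec-24.2 was at 0.10 ± 0.04 (unadjusted p = 0.034 and adjusted p = 0.612 in edgeR) and ccr-4 at -0.004 ± 0.04. Beyond oac-58, oac-57 was at 0.28 ± 0.19, oac-59 at 0.15 ± 0.13 and C42C1.8 at 0.09 ± 0.12. None of these was called. ufd-1 lies 4.754 Mb from cec-4 on the same chromosome.

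CDC-48 and its other partners were not called. Of 15 tested genes for CDC-48 and its cofactors, 1 was called (ufd-1), and the median log2 fold change was -0.02. The gene for the ATPase, cdc-48.1, had 357 and 389 CPM in the double mutant and 361 and 333 CPM in the cec-4 mutant, against 348 and 368 CPM in lamin Y59C and 368 and 364 CPM in wild-type (-0.01 ± 0.05, adjusted p = 0.985). Its paralogue cdc-48.2 was at -0.05 ± 0.06 (adjusted p = 0.889). The genes for NPL-4, the partner of UFD-1 in 1 complex, are npl-4.1 (0.21 ± 0.14, adjusted p = 0.756) and npl-4.2 (0.01 ± 0.14, adjusted p = 0.992), and as near copies they may share reads. The ubiquitin ligase genes ufd-2 (-0.02 ± 0.05, adjusted p = 0.959) and chn-1 (-0.12 ± 0.05, adjusted p = 0.619) were not called either. Of 33 genes for proteasome subunits, 0 were called and 0 had an unadjusted p under 0.05, with a median of -0.01. Without cec-4 mutant b, 3 of them were higher at that threshold.

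Genes of the pathway in which CEC-4 acts were near 0 apart from cec-4 itself. Of 22 tested genes for enzymes, readers and anchors of H3K9 methylation, 1 was called lower (cec-4), 1 more was lower at an unadjusted p under 0.05, and the median was 0.0045. The exception was set-25, the gene for the methyltransferase that makes the trimethylated mark. It had 18.1 and 13.8 CPM in the double mutant and 17.7 and 19.05 CPM in the cec-4 mutant, against 19.6 and 21.1 CPM in lamin Y59C and 19.99 and 18.6 CPM in wild-type. Double mutant b was the lowest library and the others overlapped (-0.21 ± 0.09, adjusted p = 0.619). met-2, the gene for the methyltransferase of the lower methylation states, was at -0.08 ± 0.04 (adjusted p = 0.673). The genes for the HP1 proteins were hpl-1 (0.04 ± 0.07, adjusted p = 0.925) and hpl-2 (-0.08 ± 0.04, adjusted p = 0.677). The chromodomain gene cec-5, which lies 1179 bp from cec-4, was at -0.05 ± 0.04 (adjusted p = 0.810). The gene nol-10, on the same side of cec-4, had 115 and 99.5 CPM in the double mutant and 96.7 and 96.4 CPM in the cec-4 mutant, against 93.8 and 92.9 CPM in lamin Y59C and 81.0 and 95.3 CPM in wild-type (0.16 ± 0.06, adjusted p = 0.597).

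Of 14 tested genes of the nuclear lamina and of the complexes that link it to the cytoskeleton, 0 were called by edgeR or DESeq2, and 1 was higher at an unadjusted p under 0.05. This was emr-1, the gene for emerin, a LEM-domain protein of the inner nuclear membrane that binds lamin. It had 52.6 and 53.9 CPM in the double mutant and 50.8 and 48.8 CPM in the cec-4 mutant, against 46.4 and 46.3 CPM in lamin Y59C and 44.0 and 46.2 CPM in wild-type. All 4 libraries with the deletion were above all 4 intact ones, by a small amount (0.17 ± 0.04, adjusted p = 0.494). The gene for the related LEM-domain protein LEM-2, lem-2, was at 0.08 ± 0.05 (adjusted p = 0.757). lmn-1 had 488 and 523 CPM in the double mutant and 429 and 473 CPM in the cec-4 mutant, against 511 and 519 CPM in lamin Y59C and 442 and 453 CPM in wild-type. Its cec-4 term was -0.01 ± 0.05 (adjusted p = 0.986), a value whose sign turned when single libraries were left out. baf-1, whose promoter drives the transgene, was at 0.04 ± 0.05 (adjusted p = 0.892).

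The additive term assumes a like effect in both lamin backgrounds, so the effect was also taken within each, from a fit with 1 mean per genotype. The 3 called genes were called in both backgrounds. For srw-85 the log2 fold change was 4.82 ± 0.12 in the lamin Y59C background and 5.31 ± 0.12 in the wild-type background. For ufd-1 these values were 0.72 ± 0.07 and 0.71 ± 0.06, and for cec-4 they were -1.46 ± 0.11 and -1.47 ± 0.11. The interaction, which tests the difference between the backgrounds, was called for none of the 3 (adjusted p = 0.471 for srw-85, 0.994 for ufd-1 and 0.990 for cec-4 in edgeR).

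Outside these genes the measured log2 fold changes in the 2 backgrounds were nearly uncorrelated. With 2 libraries per genotype, noise can bring such correlations near 0, so they cannot tell unlike effects from small shared ones. Between the double mutant and lamin Y59C, 97 genes were called (0.676%), and between the cec-4 mutant and wild-type 3 were (0.0209%). These comparisons share no library. Across all 14355 genes their log2 fold changes had a Pearson correlation of 0.0206 and a Spearman correlation of -0.0379, and 48.7% had the same sign. Without the 3 called genes Pearson's correlation was -0.0060. Among the 9692 genes averaging 5 CPM or more it was 0.0389 with all genes kept, Spearman's was -0.0623, and 48.0% had the same sign. These correlations are across genes, which are not independent replicates. At an unadjusted p under 0.05 there were 1897 genes in the lamin Y59C background (13.2%) and 700 in the wild-type background (4.88%). The 138 genes in both were 7.27% of the first list and 19.7% of the second, and 77 of them had the same sign (29 higher and 48 lower with the deletion in both) and 61 opposite signs. Of the 97 genes called in the lamin Y59C background, 10 had an unadjusted p under 0.05 and the same sign in the wild-type background. The 3 genes called by the cec-4 term are among these 10 and are included in the counts of 97, 138 and 77. With either double mutant library left out, 6 genes were called in the lamin Y59C background, and 8 were without lamin Y59C a. The number in that background was 157 without cec-4 mutant a and 166 without cec-4 mutant b. In the wild-type background, 9 genes were called without wild-type b.

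**Figure D3:**
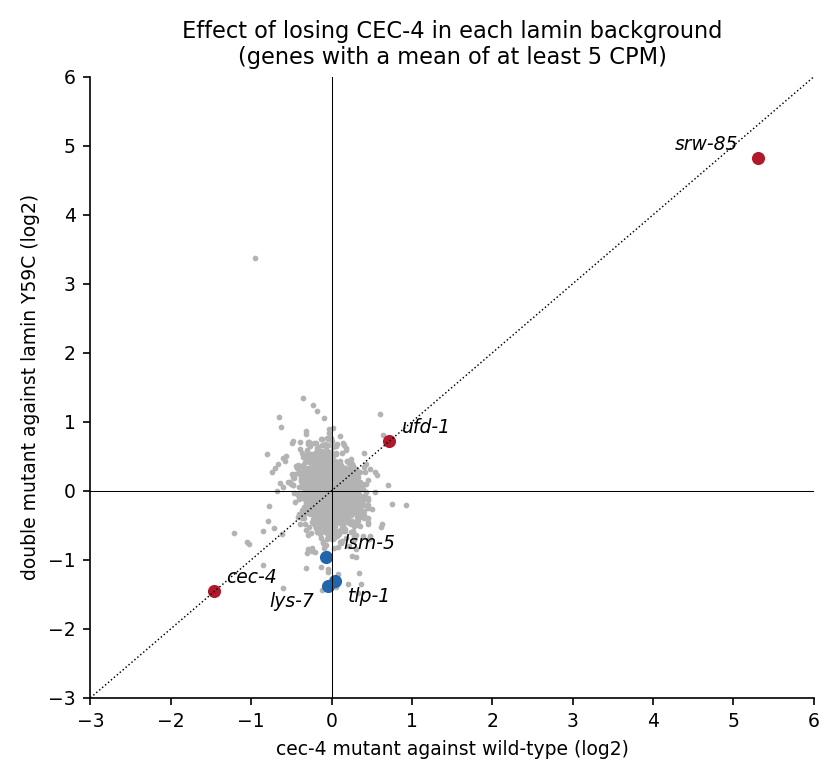
Log2 fold change of each gene averaging 5 CPM or more for the double mutant against lamin Y59C (vertical axis) and for the cec-4 mutant against wild-type (horizontal axis); the dotted line marks equal effects, red points were called by the cec-4 term and blue points are 3 of the genes called by the interaction. The 3 red points lie near the line, while tlp-1, lys-7 and lsm-5 lie at -1.31, -1.38 and -0.97 vertically and between -0.07 and 0.04 horizontally.

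The interaction was called for 5 genes (0.0348%), and 0 of them were called by the cec-4 term. The interaction called 35 genes without lamin Y59C b, 10 without cec-4 mutant a, 3 without double mutant a or cec-4 mutant b, 2 without double mutant b or wild-type a, and 1 without lamin Y59C a. The clearest was tlp-1, a gene for a zinc finger factor of tail development, with 33.98 and 30.9 CPM in the double mutant and 32.01 and 29.7 CPM in the cec-4 mutant, against 81.1 and 79.9 CPM in lamin Y59C and 29.8 and 30.1 CPM in wild-type. The lamin Y59C libraries alone were high, and the cec-4 term of -0.65 ± 0.22 (adjusted p = 0.591) stood beside a value of -1.31 in the lamin Y59C background and 0.04 in the wild-type background.

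The genes just outside the threshold of the cec-4 term had values of the same sign in both backgrounds. Choosing genes by the p of that term in the same libraries favours like signs, so this is no separate evidence. The genes are given here in order of p, and C42D4.3, Y47D7A.13 and hpo-15 were named after their values were seen. fat-7, the gene for a stearoyl-CoA desaturase, had 77.7 and 71.6 CPM in the double mutant and 54.4 and 50.4 CPM in the cec-4 mutant, against 54.1 and 62.9 CPM in lamin Y59C and 39.7 and 39.2 CPM in wild-type (0.38 ± 0.06, adjusted p = 0.106). Each deletion genotype was above the intact genotype of its own background, but the cec-4 mutant overlapped with lamin Y59C. C42D4.3 had 4.63 and 5.38 CPM in the double mutant and 7.78 and 8.35 CPM in the cec-4 mutant, against 9.49 and 11.6 CPM in lamin Y59C and 18.02 and 11.5 CPM in wild-type (-0.96 ± 0.14, adjusted p = 0.114). Its groups of 4 did not overlap. Y47D7A.13 had 6.28 and 7.46 CPM in the double mutant and 10.6 and 10.1 CPM in the cec-4 mutant, against 9.80 and 13.6 CPM in lamin Y59C and 25.1 and 17.3 CPM in wild-type (-0.91 ± 0.14, adjusted p = 0.127). nlp-24, a neuropeptide-like gene, had 28.7 and 34.3 CPM in the double mutant and 39.8 and 41.4 CPM in the cec-4 mutant, against 47.02 and 46.1 CPM in lamin Y59C and 54.4 and 47.3 CPM in wild-type (-0.44 ± 0.07, adjusted p = 0.217). The groups of nlp-24 did not overlap, and wild-type a was the highest library for it as for C42D4.3 and Y47D7A.13. hpo-15 had 122 and 124 CPM in the double mutant and 158 and 149 CPM in the cec-4 mutant, against 170 and 155 CPM in lamin Y59C and 172 and 183 CPM in wild-type (-0.31 ± 0.05, adjusted p = 0.278).

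**Figure D4:**
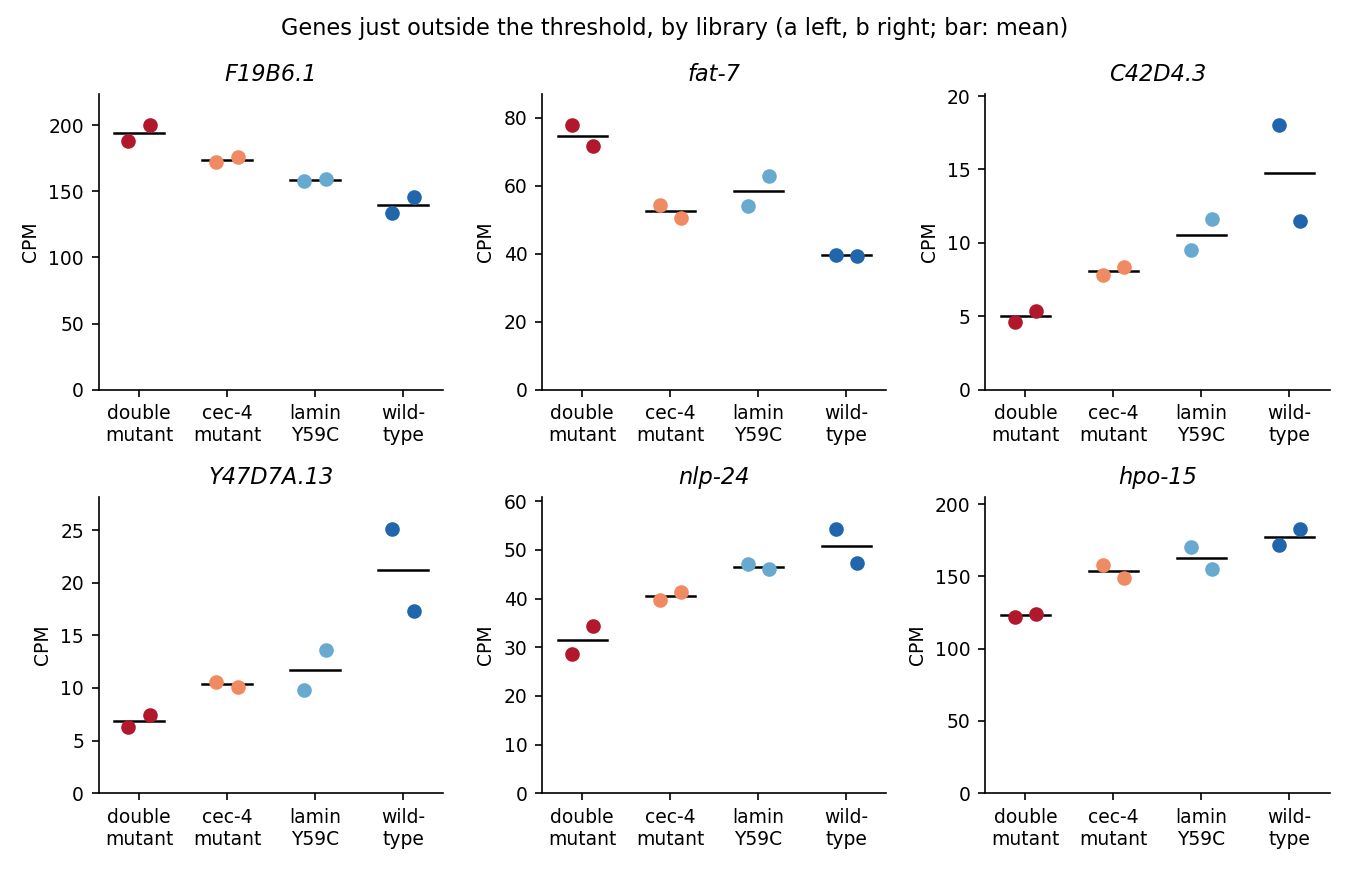
CPM in each library of the 6 uncalled genes with the smallest p in the cec-4 term (a left, b right in each pair; horizontal bars are means of 2 libraries). By their means, F19B6.1 and fat-7 are highest in the double mutant and lowest in wild-type; C42D4.3, Y47D7A.13, nlp-24 and hpo-15 run the other way, with the cec-4 mutant and lamin Y59C between.

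Other tools drew the line further out. With the same additive model DESeq2 called 31 genes of the 17323 to which it gave an adjusted p (0.179%), 8 higher and 23 lower, and the 31 included the 3 called by edgeR, F19B6.1 and the 5 genes just described. They also held the small heat shock genes hsp-16.41 and hsp-16.2 and the collagen genes col-77, col-65 and col-130, all lower, and 1 collagen gene that was higher, sqt-3 (adjusted p = 0.0398 in DESeq2). hsp-16.41 had 18.7 and 29.1 CPM in the double mutant and 13.8 and 9.34 CPM in the cec-4 mutant, against 37.7 and 33.9 CPM in lamin Y59C and 18.7 and 22.4 CPM in wild-type. Each deletion genotype was below the intact genotype of its own background, and the groups of 4 overlapped (-0.71 ± 0.15; adjusted p = 0.00113 in DESeq2 and 0.383 in edgeR). Without wild-type b, edgeR called 15 genes, and a mean effect taken from the fit with 1 mean per genotype called 17. Those 17 included tlp-1, lys-7 and lsm-5, which the interaction also called.

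Fixed lists of gene families and pathways were described by counts, since apart from srw-85, ufd-1 and cec-4 edgeR called 0 of their members, while DESeq2 called 12 list members with those 3 among them. The counts below are of members at an unadjusted p under 0.05. Those of the cec-4 term are to be read against 3.59% higher and 4.42% lower over all genes tested, with a median of 0.0035. Counts within the lamin Y59C background are to be read against 855 higher and 1042 lower of 14355 genes. Those within the wild-type background stand against 366 higher and 334 lower.

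Several families of the cuticle had a larger share of members on the lower side than all genes tested. Of 102 tested cuticle collagens, 7 were higher (6.86%) and 25 lower (24.5%), with a median log2 fold change of -0.08. col-77 had 3.06 and 4.13 CPM in the double mutant and 4.84 and 6.18 CPM in the cec-4 mutant, against 4.63 and 6.34 CPM in lamin Y59C and 15.0 and 10.8 CPM in wild-type (-0.95 ± 0.18, adjusted p = 0.323). The wild-type libraries stood above the other 6. col-10 had 53.2 and 51.8 CPM in the double mutant and 57.6 and 61.1 CPM in the cec-4 mutant, against 67.2 and 65.9 CPM in lamin Y59C and 64.8 and 64.7 CPM in wild-type (-0.23 ± 0.05, adjusted p = 0.394). Its groups did not overlap, which held for 5 of the 102 on the lower side (1.6% over all genes). The collagens also differed between libraries of the same genotype. The median deviation of a member from its own mean was -0.14 in double mutant a and -0.02 in double mutant b, and 0.17 in wild-type a and 0.04 in wild-type b. Their median log2 fold change was -0.16 within the lamin Y59C background and -0.01 within the wild-type background. At an unadjusted p under 0.05, 17 were higher and 20 lower in the lamin Y59C background. In the wild-type background 1 was higher and 16 were lower. The count of lower collagens in the cec-4 term was 17 to 29 with single libraries left out. The count of higher ones was 3 without double mutant b or without lamin Y59C b and 12 without cec-4 mutant a. A collagen that stood on the higher side was sqt-3, with 2.42 and 2.69 CPM in the double mutant and 3.01 and 4.58 CPM in the cec-4 mutant, against 0.315 and 0.694 CPM in lamin Y59C and 2.86 and 2.59 CPM in wild-type, where the lamin Y59C libraries were low (1.1 ± 0.32; adjusted p = 0.561 in edgeR and 0.0398 in DESeq2). Markers of the epidermis, which makes the cuticle, summed to 243 to 278 CPM with the deletion and 256 to 269 CPM with intact cec-4, and of 13 tested, 1 stood on each side at that unadjusted threshold. Low markers of the cuticle and moult differed more between libraries than this sum, which lin-26 and other abundant members carry. Of these, picked out after its values were seen, mlt-11 had 3.00 and 8.70 CPM in the double mutant and 3.86 and 5.42 CPM in the cec-4 mutant, against 0.441 and 1.58 CPM in lamin Y59C and 4.86 and 4.44 CPM in wild-type. dpy-7, a collagen gene, had 0.552 and 2.59 CPM in the double mutant and 0.948 and 1.44 CPM in the cec-4 mutant, against 0.126 and 0.505 CPM in lamin Y59C and 1.51 and 0.941 CPM in wild-type. In both, as in noah-2 and wrt-10, double mutant a was below double mutant b and lamin Y59C a was the lowest library. Other low markers did not share this pattern. mlt-10 had 6.37 and 5.89 CPM in the double mutant and was lowest in wild-type a (3.89 CPM). che-14 had 0.735 and 0.736 CPM in the double mutant and was lowest in cec-4 mutant a (0.556 CPM). The part of these markers in the collagen counts was not tested.

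Of 23 tested astacin metalloproteases, some of which process cuticle collagens, 2 were higher and 6 lower (26.1%). The member with the smallest p was nas-3, with 0.981 and 0.896 CPM in the double mutant and 2.62 and 2.59 CPM in the cec-4 mutant, against 0.945 and 1.67 CPM in lamin Y59C and 4.71 and 4.38 CPM in wild-type (-0.69 ± 0.16, adjusted p = 0.510). The lower count was 3 without lamin Y59C a or without wild-type a. Of 35 tested hedgehog-related genes, 3 were higher and 5 lower. The higher count was 5 without cec-4 mutant a, and the lower count was 3 without wild-type a and 8 without wild-type b. Their member with the smallest p was grl-21 (-0.87 ± 0.20, adjusted p = 0.494), at 1.82 to 3.33 CPM with the deletion and 3.94 to 5.995 CPM with intact cec-4.

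Families of detoxification went both ways. Of 64 tested UDP-glucuronosyltransferases, which attach sugars to small molecules, 12 were higher (18.8%) and 1 lower (1.56%), with a median of 0.12. ugt-16 had 83.5 and 92.9 CPM in the double mutant and 54.5 and 48.7 CPM in the cec-4 mutant, against 45.9 and 56.2 CPM in lamin Y59C and 45.9 and 49.9 CPM in wild-type (0.45 ± 0.13, adjusted p = 0.561). The double mutant alone stood apart for ugt-16, and the family's median was 0.15 in the lamin Y59C background and 0.03 in the wild-type background. The count of higher members was 5 with double mutant a left out and 6 without double mutant b, lamin Y59C a or lamin Y59C b. It was 6 in DESeq2, 3 with no lamin term and 20 as a mean effect of the fit with 1 mean per genotype. Of 46 tested glutathione S-transferases, which join glutathione to reactive compounds, 0 were higher and 10 lower (21.7%), with a median of -0.10. gst-13 had 57.6 and 56.6 CPM in the double mutant and 67.9 and 72.8 CPM in the cec-4 mutant, against 66.0 and 68.4 CPM in lamin Y59C and 78.3 and 77.8 CPM in wild-type (-0.19 ± 0.04, adjusted p = 0.383). Here each deletion genotype was below the intact genotype of its background, and the family's medians were -0.12 in the lamin Y59C background and -0.10 in the wild-type background. The count of lower members was 6 without double mutant a and at most 15 with another library left out. Of 68 tested cytochrome P450 genes, 4 were higher and 2 lower. With single libraries left out the higher count ran from 1 (either double mutant library, either lamin Y59C library or cec-4 mutant a) to 7 (cec-4 mutant b) and 9 (wild-type a). The lower count was 4 with cec-4 mutant b or either lamin Y59C library left out and 7 with wild-type b left out.

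**Figure D5:**
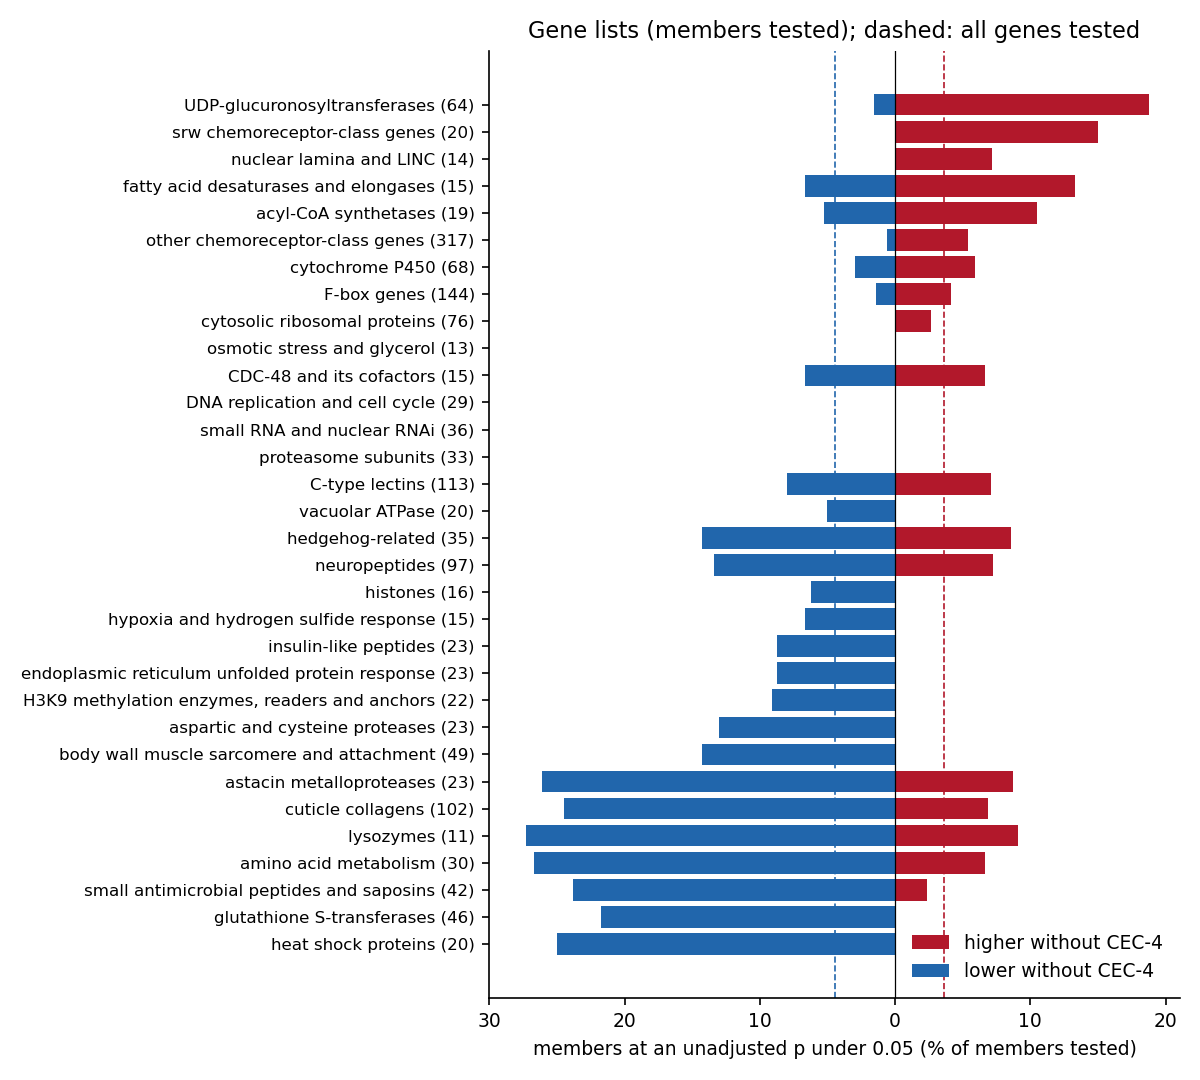
Share of the tested members of each gene list with an unadjusted p under 0.05 in the cec-4 term, higher (red, to the right) and lower (blue, to the left) without CEC-4, in percent of members tested (number in brackets); the dashed lines are the shares over all 14355 genes, 3.59% and 4.42%. UDP-glucuronosyltransferases reach 18.8% on the higher side. On the lower side, lysozymes reach 27.3% (3 of 11), amino acid metabolism 26.7%, astacin metalloproteases 26.1% and heat shock proteins 25%. Cuticle collagens reach 24.5% there, small antimicrobial peptides and saposins 23.8% and glutathione S-transferases 21.7%. Lists with fewer than 10 tested members are not drawn.

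Immune genes had more lower members in the lamin Y59C background than in the wild-type background, a difference that was not tested. So had all genes tested, with 1042 and 334 lower of 14355. Of 42 tested genes for small antimicrobial peptides and saposins, 1 was higher (2.38%) and 10 lower (23.8%), a count that was 3 without double mutant a and 5 without lamin Y59C b. Within the lamin Y59C background 12 were lower, and within the wild-type background 1 was. The smallest p was that of cnc-11, a caenacin gene, which had 0.460 and 0.768 CPM in the double mutant and 0.883 and 0.785 CPM in the cec-4 mutant, against 1.32 and 1.42 CPM in lamin Y59C and 1.38 and 1.46 CPM in wild-type. Its groups did not overlap, at a low level (-0.95 ± 0.18, adjusted p = 0.330). Of 11 tested lysozymes, 1 was higher (9.09%) and 3 lower (27.3%), with a median of -0.14 and 6 lower in the lamin Y59C background and a median of 0.04 and 2 lower in the wild-type background. lys-2 had 116 and 118 CPM in the double mutant and 146 and 147 CPM in the cec-4 mutant, against 132 and 125 CPM in lamin Y59C and 155 and 165 CPM in wild-type (-0.13 ± 0.04, adjusted p = 0.561). Of 113 tested C-type lectins, 8 were higher and 9 lower. The higher count was 4 with double mutant a left out and 5 with lamin Y59C b left out, and the lower count was 4 with double mutant b and 5 with double mutant a or lamin Y59C b left out. In the lamin Y59C background 8 C-type lectins were higher and 25 lower, and in the wild-type background 10 were higher and 1 lower.

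Heat shock proteins, which are chaperones, had 0 members higher and 5 lower (25%) of 20 tested, and the count was 3 without lamin Y59C b. Besides hsp-16.41, hsp-16.2 had 22.1 and 37.2 CPM in the double mutant and 19.2 and 14.9 CPM in the cec-4 mutant, against 48.7 and 42.7 CPM in lamin Y59C and 23.2 and 28.3 CPM in wild-type (-0.62 ± 0.15, adjusted p = 0.517). The hsp-16 genes are near copies of each other and may share reads. hsp-4, the gene for the BiP chaperone of the endoplasmic reticulum, had 179 and 184 CPM in the double mutant and 182 and 167 CPM in the cec-4 mutant, against 230 and 203 CPM in lamin Y59C and 207 and 186 CPM in wild-type (-0.21 ± 0.06, adjusted p = 0.560). Its groups did not overlap. Of 23 tested genes of the unfolded protein response of the endoplasmic reticulum, 0 were higher and 2 lower.

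In muscle and metabolism, the values were small. Of 49 tested genes of the body wall muscle sarcomere and its attachments, 0 were higher and 7 lower (14.3%), with a median of -0.04, and in 6 of the 49 all 4 libraries with the deletion were below all 4 intact ones (1.6% over all genes). Within the lamin Y59C background 8 members were lower and within the wild-type background 1 was (1042 and 334 of 14355 over all genes). unc-27, a troponin I gene, had 296 and 318 CPM in the double mutant and 341 and 353 CPM in the cec-4 mutant, against 368 and 356 CPM in lamin Y59C and 373 and 366 CPM in wild-type (-0.16 ± 0.05, adjusted p = 0.561). The groups of unc-27 did not overlap. The lower count was 3 without double mutant a, without lamin Y59C a or without lamin Y59C b. The summed level of 9 body wall muscle markers was 8512 to 9199 CPM with the deletion and 8654 to 9344 CPM with intact cec-4, and its part in this result was not tested. Of 30 tested genes of amino acid metabolism, 2 were higher (6.67%) and 8 lower (26.7%), the second count being 4 without double mutant a. The proline dehydrogenase gene prdh-1 had 93.6 and 94.6 CPM in the double mutant and 111 and 108 CPM in the cec-4 mutant, against 98.8 and 105 CPM in lamin Y59C and 129 and 121 CPM in wild-type (-0.15 ± 0.04, adjusted p = 0.560).

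Of 97 tested neuropeptide genes, 7 were higher (7.22%) and 13 lower (13.4%), and in 10 all 4 libraries with the deletion were below all 4 intact ones (1.6% over all genes). The higher count was 2 without double mutant b, 4 without lamin Y59C a and 3 without lamin Y59C b. Within the lamin Y59C background 21 were lower and within the wild-type background 3 were (1042 and 334 of 14355 over all genes). The lower count of the cec-4 term was 8 with 1 double mutant library (a or b) left out, 6 without lamin Y59C a and 7 without lamin Y59C b. The summed level of 15 neuronal markers was 2287 to 2389 CPM with the deletion and 2225 to 2442 CPM with intact cec-4. Lists with at most 2 members at an unadjusted p under 0.05 included 29 genes of DNA replication and the cell cycle (0 higher, 0 lower), 36 of small RNA pathways (0 higher, 0 lower), 16 histone genes (0 higher, 1 lower), 20 of the vacuolar ATPase (0 higher, 1 lower) and 76 cytosolic ribosomal proteins (2 higher, 0 lower). Of the ribosomal proteins, 22 were higher without cec-4 mutant b. Vitellogenins had 1 of 6 genes tested, vit-1, at 0.01 with a sign that turned under other settings, and 0 of 30 major sperm protein genes were tested.

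The 3 called genes were 2 on chromosome IV and 1 on chromosome V. Genes at an unadjusted p under 0.05 were spread over the genome. The share of higher genes lay between 2.73% on chromosome III and 4.17% on chromosome V, and that of lower genes between 3.62% on chromosome I and 5.29% on chromosome V. Each chromosome was divided into 3 equal parts over the span to its last annotated gene, which only approximates its arms and centre. The outer parts, where most of the H3K9 methylation of the worm is known to lie, had 3.11% higher and 4.62% lower of 8200 genes, and the middle parts 4.17% and 4.202% of 5855. Of the called genes, 2 lay in outer parts and 1 in a middle part. Within 1 Mb of cec-4, 14 of 338 genes were higher (4.14%) and 15 lower (4.44%), and 1 was called, which was cec-4.

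Summed levels of cell type markers overlapped between the groups. The summed level of 20 germline markers, 19 of them tested, was 139 to 155 CPM with the deletion and 139.9 to 157 CPM with intact cec-4. Intestinal markers summed to 11392 to 12553 CPM with the deletion and 11900.3 to 12394 CPM without it, pharyngeal markers to 3277 to 3519 and 3137 to 3412 CPM, and epidermal markers to 243 to 278 and 256 to 269 CPM, in the same order. Of the markers in the 7 lists, 0 were called by edgeR or DESeq2. At an unadjusted p under 0.05 stood 1 higher and 2 lower intestinal markers, 1 higher and 1 lower epidermal marker and 1 lower marker of body wall muscle. The marker with the smallest p was ges-1, an intestinal esterase gene, with 32.1 and 34.02 CPM in the double mutant and 36.8 and 36.0 CPM in the cec-4 mutant, against 42.1 and 37.5 CPM in lamin Y59C and 41.1 and 39.5 CPM in wild-type (-0.21 ± 0.05, adjusted p = 0.527). Its groups of 4 did not overlap. This held on the lower side for 1 of 11 tested intestinal, 1 of 9 body wall muscle and 1 of 5 early embryo markers (1.6% over all genes). On the higher side it held for 1 of 19 germline markers (1.34% over all genes).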

How the data were processed

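The deposited table held whole-number counts per gene for 8 libraries, made by the authors. The submitters' processing notes name Bowtie, the ce10 build and edgeR 3.24.0. Neither the counting tool nor its use of strand is stated in the sources used here. A second deposited table held log2 values, and all 163136 were recomputed from the counts as log2(count scaled to the mean total + 8) with 0 off by over 1e-06; this table served no test. Gene symbols (19182 of 20392 genes) and WBcel235 positions (19870) were matched by gene ID, and no coordinate was converted.

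The counts were tested in R 4.3.3 with edgeR 4.0.16 (limma 3.58.1). Genes were kept by filterByExpr over the 4 genotypes, which removed 6037 genes holding 0.0278% of counts, and libraries were scaled by TMM. The additive quasi-likelihood fit had a common dispersion of 0.00526, 5 residual and 5.29 prior degrees of freedom. The within-background and interaction values came from a fit with 1 mean per genotype (4 residual degrees of freedom). Tests were two-sided, with Benjamini-Hochberg adjustment over all genes tested. The SE is the size of the log2 fold change divided by the square root of F, which may understate it where counts are low. The fit was tested on simulated data.

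Alternatives were DESeq2 1.42.0 (1457 genes had no adjusted p), other scalings and filters, a replicate block, no lamin term, the 4-genotype fit, each library left out and wild-type b thinned. The genes named were, by rule, the genotype genes, called genes averaging 5 CPM or more on 1 side and no overlap (the 12 largest changes and the 8 smallest p-values per direction), and per list up to 3 called members or else the 1 with the smallest p. Genes said to be chosen after seeing their values, and the neighbours, pathway members and interaction genes, come in addition. The comparison and the 35 gene and 7 marker lists were chosen with earlier results of these data known.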

Additional observations from a re-analysis of the deposited data

Results flagged for a closer look

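Single libraries stood apart from the other 3 of their side in 4 of 86 groups of 4 libraries examined over 43 genes. The rule flags about 1 in 20 groups of like libraries by chance. That rate is no measure here, since each side mixes genotypes and most genes were chosen by their values in these libraries. daf-42 was examined because its high library had already been seen. The cec-4 level in wild-type a was 14.5 CPM, against 12.3 to 12.7 CPM in the other libraries with intact cec-4. The nlp-24 level in wild-type a was 54.4 CPM, against 46.1 to 47.3 CPM in the other 3, and the emr-1 level in wild-type a was 44.0 CPM, against 46.2 to 46.4 CPM. For daf-42, cec-4 mutant b had 15.8 CPM, against 0.192 to 0.392 CPM in the other libraries with the deletion.

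The effect of losing CEC-4 differed between the lamin Y59C and the wild-type background for 5 genes by edgeR's test of the interaction with Benjamini-Hochberg adjustment. The interaction, as a log2 difference of the effect in the lamin Y59C background minus that in the wild-type background, was -1.35 for tlp-1, -1.33 for lys-7, -0.90 for lsm-5, -1.15 for clec-42 and -1.11 for clc-11. The additive values were -0.65, -0.71, -0.53, -0.27 and 0.10 in the same order, and the cec-4 term called 0 of these 5.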

How the results depend on the processing

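The calls of cec-4, srw-85 and ufd-1 by the cec-4 term were kept in every setting run for it, with log2 fold changes of -1.51 to -1.42, 4.93 to 5.17 and 0.68 to 0.75. The number of genes called by the cec-4 term, 3 in the report, was 31 in DESeq2, 7 with no filter on low counts (adding C42D4.3, Y47D7A.13, fat-7 and F19B6.1), 17 as a mean effect of the 4-genotype fit, and 3 to 15 with single libraries left out, the highest without wild-type b. It was 3 with wild-type b thinned and with edgeR's newer quasi-likelihood method. Both settings, and most of those for the within-background and interaction values, were chosen after seeing the data. List members called were 12 in DESeq2, 9 in the 4-genotype fit and 6 without wild-type b. With no lamin term, glutathione S-transferases lower at an unadjusted p under 0.05 were 4 instead of 10. Amino acid metabolism had 2 lower instead of 8, heat shock proteins 3 instead of 5 and cuticle collagens 24 instead of 25. For the double mutant against lamin Y59C, 97 in the report became 182 with no filter, 28 with a replicate block, 236 in DESeq2, 156 in a fit of those 4 libraries alone, and 6 to 166 with single libraries left out. For the cec-4 mutant against wild-type, 3 became 11 in DESeq2 and 3 to 9 with single libraries left out. For the interaction, 5 became 34 with no filter, 73 in DESeq2 and 1 to 35 with single libraries left out. Signs turned for vit-1 (-0.0103 in DESeq2, -0.0019 with no lamin term, -0.0026 with the replicate block, -0.16 to 0.147 with single libraries left out) and lmn-1 (-0.0459 to 0.0168 with single libraries left out). The causes were not tested. The letters a and b did not pair the libraries: the correlations of a minus b between genotypes ran from -0.31 to 0.28. With the replicate block the cec-4 term called 3 genes.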
